A study of Mus musculus with 9 samples.

Results

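The 37 genes described here are interferon-stimulated and antigen processing genes, taken by gene symbol from the authors' table of log2 signal in mouse liver. All 37 symbols were found, each with 1 probe set, among 22206 probe sets that carry 21130 distinct single gene symbols. The arrays were GeneChip Clariom S mouse arrays, which report 1 summarised signal per gene-level probe set. Liver RNA came from male C57BL/6JHamSlc-ob/ob mice, so every group carries the ob/ob genotype, a loss of leptin that leads to obesity. Mice obtained at 6 weeks of age received vehicle, VE at 50 mg/kg (VE50) or VE at 100 mg/kg (VE100) by oral gavage for 42 days on standard chow. VE is an extract of Vigna umbellata, the rice bean. Each of the 3 groups holds 3 arrays. The labels do not state that each array came from a separate animal, so p-values measure the spread between these arrays, which may be technical. Lean mice were not analysed here.

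Interferons bind receptors on the cell surface, and the kinases attached to these receptors activate STAT transcription factors. Type I interferons act through a complex with STAT2 and IRF9 that binds the interferon-stimulated response element (ISRE) in promoters, whereas interferon gamma acts through the gamma-activated sequence (GAS). The genes switched on this way encode sensors of viral nucleic acid, antiviral effectors and GTPases that attack intracellular microbes. They also encode the machinery that cuts proteins with the immunoproteasome, carries the peptides into the endoplasmic reticulum with the TAP transporter and loads them on MHC class I molecules. In liver, hepatocytes, Kupffer cells (the resident macrophages) and other immune cells respond to interferon.

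In VE100 livers, most of these genes had a lower mean signal than in vehicle livers, whereas the VE50 means lay on both sides of vehicle. The difference of VE100 from vehicle was below 0 for 30 of the 37 genes (81.1%), against 51.4% of all probe sets, and its median over the 37 was -0.24 on the log2 scale, against -0.01 over all probe sets. For VE50 it was below 0 for 18 genes (48.6%, against 50.7% of all probe sets), with a median of 0.01. Between VE100 and VE50 it was below 0 for 29 genes (78.4%, against 50.7%), with a median of -0.19. The comparisons share arrays: both doses were set against the same vehicle arrays, and both contrasts with VE100 use the same VE100 arrays. The lowest group mean was that of VE100 for 23 genes, of VE50 for 7 and of vehicle for 7. Over all probe sets the shares were 34.8%, 28.6% and 36.6%.

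With limma and Benjamini-Hochberg adjustment over all probe sets, 0 of the 37 genes passed an adjusted p of 0.05 in any comparison, and 0 of all probe sets did (0%). Calls are therefore given by the study's own criterion, an unadjusted p under 0.05 with a linear fold above 1.1. For VE100 against vehicle, 5 genes passed it with lower signal (Irf7, Ifit3, Xaf1, Gbp2 and Irgm1) and 0 with higher signal. Over all probe sets, 4.37% passed in the lower direction, 5.11% in the higher direction and 9.48% in all. For VE100 against VE50, 5 passed with lower signal (Irf7, Xaf1, Rtp4, Tap1 and Psmb9) and 0 with higher signal, against 1.43% lower, 1.49% higher and 2.91% of all probe sets in either direction. For VE50 against vehicle, 0 passed, against 2.80% lower, 3.31% higher and 6.12% of all probe sets in either direction. In total 8 of the 37 genes passed in at least 1 comparison and 29 in none. Single arrays moved these counts. Against vehicle, 3 genes passed in VE100 without vehicle 2, VE100 2 or VE100 3; between the doses, 2 passed without VE50 1 and 3 without VE50 2. In VE50, 3 passed without vehicle 1 (Irf1, Ifit3 and Igtp, lower) and 3 without vehicle 3 (Gbp2 and Tapbp, lower, and Ifi35, higher). In VE50, 1 passed without each of vehicle 2 (Rsad2), VE50 1 (Tap1), VE50 2 (Ifi35), VE100 2 and VE100 3 (Gbp2 in both). Counts over all 22206 probe sets moved too. For VE100 against vehicle, 2176, 1675 and 1740 passed in the fits named, against 2105 with all arrays. Between the doses, 413 and 499 passed, against 647. For VE50, 1266 passed without vehicle 1, 2991 without vehicle 3 and 987 to 1650 in the other fits named, against 1358.

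**Figure D1:**
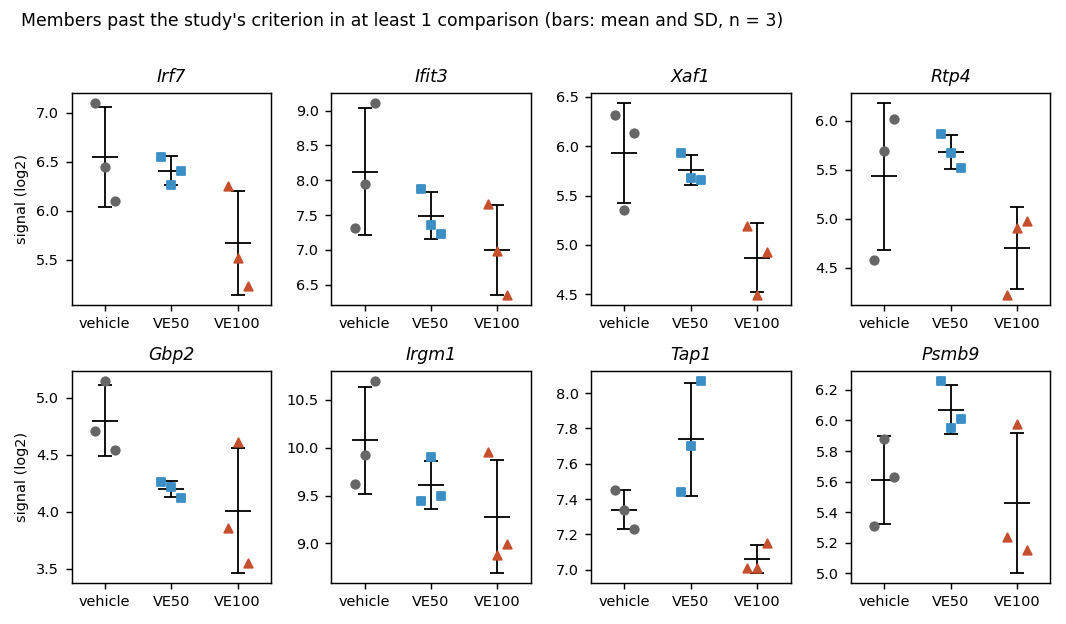
Signal (log2, y axis; the scale of each panel is its own and does not start at 0) of the 8 genes past the criterion in at least 1 comparison, for the vehicle, VE50 and VE100 groups (x axis). Symbols are single arrays, and black bars give the mean and SD of 3 arrays. VE100 had the lowest group mean for all 8 genes, which follows largely from the choice, since each passed with lower signal in VE100.

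Low signal limits these values. An array's detection level was taken as the 95th percentile of its 5222 negative control probe sets in the deposited value table. Each gene's value in that same value table was compared with it, and these values differ from the signals quoted here. For example, Ifit3 on vehicle 3 counted as above the level of 9.76, although its quoted signal was 9.11. Of the 37 genes, 28 lay above it on 0 arrays, 8 on some arrays and 1, B2m, on all 9; over all probe sets, 22.4% lay above it on at least 1 array. Irgm1, Trim25 and Tapbp lay above it on 8 arrays each, Ifih1 on 6, Bst2 and Eif2ak2 on 4 each, Stat2 on 2 and Ifit3 on 1. The median of the negative controls was a lower bar, which 20 genes passed on all 9 arrays and 2, Rsad2 and Oasl1, on none. For genes below the detection level, described here as within the range of the negative controls, log2 differences are given without a linear fold. The folds deposited by the authors are the exception. Over the 9 genes above the controls on at least 1 array, a grouping added after seeing the data, the median difference was -0.06 for VE100 against vehicle and -0.31 for VE100 against VE50.

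**Figure D2:**
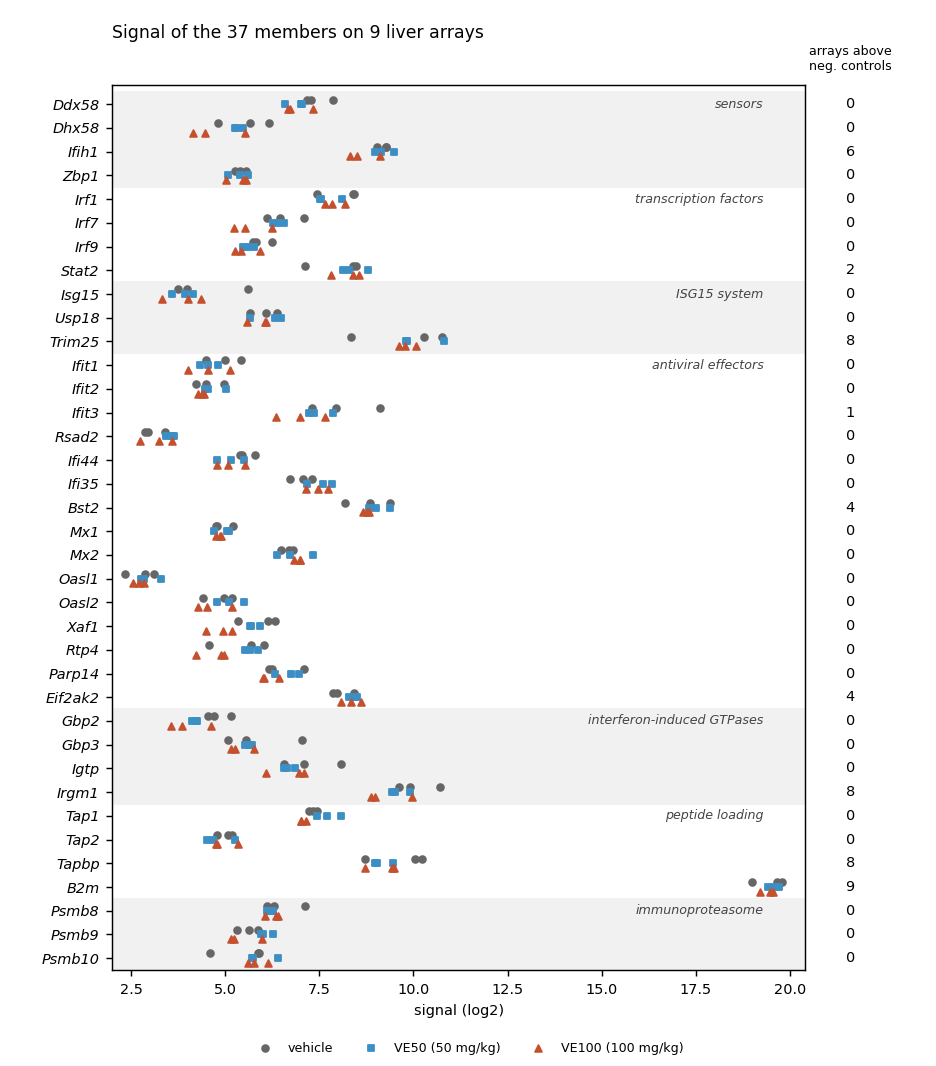
Signal (log2, x axis) of the 37 genes (y axis, grouped by role) on 9 arrays; grey circles are vehicle, blue squares VE50 and orange triangles VE100. The number at the right is how many of the 9 arrays lay above the negative control probe sets, judged on the deposited value table and not on the signals drawn. It is 9 for B2m, 8 for Trim25, Irgm1 and Tapbp, and 0 for 28 genes.

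Vehicle 3 stood apart from the other arrays and bears on every comparison with vehicle. Its signal correlated with that of the others at 0.948 to 0.967 across probe sets, against 0.974 to 0.99 among the other 8. Its Saa2, an inducible acute phase gene, reached 18.75, against 7.84 to 11.81 on the other 8 arrays. It was the highest array for 12 of the 37 genes and the lowest for 8, against 24% and 20.5% of all probe sets. The fraction of probe sets above the negative controls ran from 14.3% on vehicle 3 to 20.2% on vehicle 1. Hepatocyte markers, which check the labelled tissue, lay above the negative controls on all 9 arrays for 11 of 11 genes. Values without vehicle 3 are given below for some of the genes it moves.

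Promoter sequence was not used to choose these genes. RefSeq promoter windows (GRCm38.p6, 250 bases before to 50 after the start) were at hand for 29 of the 37 genes. The ISRE core, searched as GAAANNGAA on both strands, was found in 16 of them (55.2%), against 9.76% of the windows of 27025 genes. The GAS motif, TTCNNNGAA, whose letters read the same on the other strand, was found in 7 (24.1%, against 9.55%). Both motifs were found in 3 (Bst2, Eif2ak2 and Igtp; 10.3%, against 1.42%), and neither in 9. A letter match is a description and not a binding site. Stretches of the windows of 4 genes, around the matches, are printed from 5′ to 3′ on the gene's strand because they show how the core is placed in genes with 1, 2 or 3 matches, and capitals mark the matches. Ifit3 (chr19:34583344-34583465, plus strand), Gbp2 (chr3:142620575-142620643, plus strand) and Irgm1 (chr11:48871406-48871480, minus strand) passed the criterion. Isg15 (chr4:156200846-156200926, minus strand) encodes the namesake ubiquitin-like protein and did not.
Ifit3: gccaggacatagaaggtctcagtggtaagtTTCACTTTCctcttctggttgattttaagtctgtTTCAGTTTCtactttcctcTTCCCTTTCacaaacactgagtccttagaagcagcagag
Gbp2: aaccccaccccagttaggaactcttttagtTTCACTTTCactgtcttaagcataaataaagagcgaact
Irgm1: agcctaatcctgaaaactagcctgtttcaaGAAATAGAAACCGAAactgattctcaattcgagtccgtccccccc
Isg15: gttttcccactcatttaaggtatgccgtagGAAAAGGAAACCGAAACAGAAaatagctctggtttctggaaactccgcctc

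In Irgm1 and Isg15 the matches overlap, 2 in the first and 3 in the second. In Ifit3 the 3 matches are separate and on the other strand, with the nearest ending 94 bases before the start. Of the other genes past the criterion, neither motif was found in the windows of Irf7, Xaf1, Tap1 and Psmb9, which says only that these letters are not there, and Rtp4 is named here without a sequence. Tap1 and Psmb9 lie head to head on chromosome 17, with starts at 34187556 (plus strand) and 34187330 (minus strand), 226 bases apart. Their windows therefore share 275 bases. The whole Tap1 window of 300 bases, which holds this shared stretch, is shown because both genes passed between the doses. The Tap1 window (chr17:34187306-34187605, plus strand, GRCm38.p6) has no capitals because it holds no ISRE core.
Tap1: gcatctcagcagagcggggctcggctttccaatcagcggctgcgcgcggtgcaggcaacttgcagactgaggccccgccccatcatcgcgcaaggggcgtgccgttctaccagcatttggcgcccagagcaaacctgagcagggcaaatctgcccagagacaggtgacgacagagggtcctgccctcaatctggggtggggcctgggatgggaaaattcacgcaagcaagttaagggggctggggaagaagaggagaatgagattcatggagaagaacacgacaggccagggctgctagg

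The 4 sensors of viral nucleic acid all had a lower mean in VE100 than in vehicle, with a median difference of -0.53, and none passed the criterion. Ifih1, which encodes MDA5, a receptor for long double-stranded RNA, had signals of 9.28, 9.02 and 9.27 in vehicle, 9.15, 9.47 and 8.99 in VE50, and 8.49, 8.32 and 9.12 in VE100. VE100 1 and VE100 2 were the lowest arrays, and VE100 3 lay among the rest. The difference was -0.55 ± 0.25 (SE) from vehicle and -0.56 ± 0.25 from VE50, short of the criterion. Between the doses Ifih1 passed without vehicle 3, VE50 3 or VE100 3, and against vehicle without VE100 3. Ddx58, which encodes RIG-I, a receptor for short RNA with a 5′ triphosphate, lay at -0.54 ± 0.27 in VE50 and -0.52 ± 0.27 in VE100 against vehicle. All VE50 arrays of Ddx58 (6.60 to 7.05) lay below all vehicle arrays (7.18 to 7.85). Dhx58, which encodes LGP2, a regulator of both receptors, lay at -0.84 ± 0.40 in VE100 against vehicle. It passed without vehicle 3 (-1.21) or VE100 2. Zbp1, a sensor of Z-form nucleic acid that can trigger necroptosis, lay at -0.05 ± 0.23.

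Among the 4 transcription factors, Irf7 had the largest difference. Irf7, the factor that amplifies transcription of type I interferon genes, had signals of 7.10, 6.45 and 6.10 in vehicle, 6.55, 6.26 and 6.41 in VE50, and 6.25, 5.52 and 5.23 in VE100. All VE100 arrays lay below all VE50 arrays, and VE100 1 overlapped the vehicle range. The difference of VE100 was -0.88 ± 0.32 from vehicle (limma adjusted p = 0.454) and -0.74 ± 0.32 from VE50 (adjusted p = 1.0). Against vehicle, Irf7 no longer passed without vehicle 1 (-0.61), VE100 2 (-0.81) or VE100 3 (-0.67), and it lay at -1.11 without vehicle 3. Against VE50, it no longer passed in 6 of the 9 fits that left out 1 array (vehicle 2, each VE50 array, VE100 2 and VE100 3), where the difference lay between -0.81 and -0.52. All Irf7 values lay within the range of the negative controls.

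The other transcription factors did not pass. Stat2, a part of the ISRE-binding complex, had signals of 8.48, 8.39 and 7.12 in vehicle, 8.13, 8.79 and 8.29 in VE50, and 8.39, 8.54 and 7.81 in VE100. Vehicle 3 was the lowest Stat2 array, and the groups overlapped, with a VE100 difference of 0.25 ± 0.38 from vehicle, or -0.19 without vehicle 3. The VE50 difference was 0.41 ± 0.38, or -0.03 without vehicle 3. Irf9, which supplies the DNA-binding part of that complex, lay at -0.41 ± 0.24 in VE100 and -0.32 ± 0.24 in VE50. Irf1, an early target of interferon gamma, lay at -0.19 ± 0.31 in VE100.

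In the ISG15 system, 0 of 3 genes passed in any comparison. Isg15, a ubiquitin-like protein attached to other proteins, had signals of 3.75, 3.99 and 5.61 in vehicle, 4.13, 3.94 and 3.58 in VE50, and 4.36, 3.32 and 4.00 in VE100, within the range of the negative controls. Vehicle 3 alone was high: the difference of VE100 was -0.56 ± 0.46 with it and 0.02 without it, and that of VE50 -0.57 ± 0.46 and 0.01. Usp18, the protease that removes ISG15 and restrains the interferon receptor, lay at -0.14 ± 0.29. Trim25, a ubiquitin ligase that acts on RIG-I, had signals of 10.28, 10.75 and 8.34 in vehicle, 9.83, 10.82 and 9.81 in VE50, and 9.61, 9.78 and 10.07 in VE100. Vehicle 3 was by far the lowest Trim25 array, and the VE100 mean lay 0.03 ± 0.54 from vehicle with it and -0.69 without it. VE50 lay at 0.36 ± 0.54 with it and -0.36 without it, and neither dose passed.

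Of the 15 antiviral effectors, 2 passed against vehicle in VE100, Ifit3 and Xaf1, and 2 passed between the doses, Xaf1 and Rtp4. Between the doses 14 of the 15 lay below 0, with a median of -0.30, and Mx2 lay above 0 (0.12 ± 0.26). Against vehicle the median was 0.18 for VE50 and -0.19 for VE100.

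Xaf1, a partner of the apoptosis inhibitor XIAP, had signals of 6.32, 5.35 and 6.13 in vehicle, 5.93, 5.68 and 5.66 in VE50, and 5.19, 4.49 and 4.93 in VE100. All 3 VE100 arrays lay below all 6 others. The difference of VE100 was -1.06 ± 0.29 from vehicle (limma adjusted p = 0.366) and -0.89 ± 0.29 from VE50 (adjusted p = 1.0). Against vehicle the criterion was met in every alternative setting that kept the gene, and between the doses it was missed without VE100 2 (-0.70). The filter on low signal left Xaf1 out. The Xaf1 signal lay within the range of the negative controls on all 9 arrays.

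Ifit3, of the tetratricopeptide proteins that bind viral RNA or translation factors, had signals of 7.31, 7.95 and 9.11 in vehicle, 7.87, 7.36 and 7.23 in VE50, and 7.66, 6.98 and 6.36 in VE100. Vehicle 3 was the highest array and the only one above the negative controls, and VE100 1 overlapped the other groups. The difference of VE100 from vehicle was -1.12 ± 0.46 (limma adjusted p = 0.482). It was -0.63 without vehicle 3, -1.11 without VE100 2 and -0.80 without VE100 3, and none of these passed. Ifit3 has a near-identical copy, Ifit3b, whose transcripts its probes may also bind. Ifit1 and Ifit2, of the same family, lay at -0.42 ± 0.33 and -0.19 ± 0.25 in VE100 against vehicle.

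Rtp4, a chaperone of membrane receptors that is induced by type I interferon, had signals of 4.58, 5.69 and 6.02 in vehicle, 5.86, 5.67 and 5.52 in VE50, and 4.22, 4.90 and 4.98 in VE100. All VE100 arrays lay below all VE50 arrays, while vehicle 1 lay among the VE100 values and the other vehicle arrays among those of VE50 or above. The difference between the doses was -0.98 ± 0.36 (limma adjusted p = 1.0). It no longer passed without VE50 1 (-0.90) or VE100 1 (-0.74). The Rtp4 signal lay within the range of the negative controls.

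Bst2, or tetherin, which holds budding virus at the cell surface, had signals of 8.17, 8.84 and 9.37 in vehicle, 9.0, 9.38 and 8.82 in VE50, and 8.83, 8.66 and 8.77 in VE100. The groups overlapped, with a VE100 difference of -0.04 ± 0.30 from vehicle, or 0.25 without vehicle 3. Ifi35, an interferon-induced protein, lay at 0.50 ± 0.26 in VE50 against vehicle, short of the criterion, and at 0.64 without vehicle 3, past it. Eif2ak2, the kinase PKR that halts translation when it binds double-stranded RNA, lay at 0.25 ± 0.23. Mx2, a dynamin-like antiviral GTPase, had all VE100 arrays (6.83 to 6.98) above all vehicle arrays (6.48 to 6.80), a difference of 0.27 ± 0.26. On the authors' value table, Mx2 passed the criterion with higher signal in VE50 and in VE100. Rsad2, or viperin, whose signal was below the median of the negative controls on every array, had all VE50 arrays above all vehicle arrays (0.48 ± 0.26). The remaining effectors were Ifi44, Ifi35, Mx1 (a relative of Mx2), Oasl1 and Oasl2 (relatives of the oligoadenylate synthetases) and Parp14 (an ADP-ribosyltransferase). They lay between -0.42 and 0.41 in VE100 against vehicle, and none passed.

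All 4 interferon-induced GTPases had lower means than vehicle in VE50 and in VE100, with medians of -0.51 and -0.66. Vehicle 3 stood out in this group: the median of the 4 genes lay 1.12 above their 9-array mean on that array. Without it the medians were -0.15 and -0.30.

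Gbp2, a guanylate-binding protein that coats vacuoles holding microbes, had signals of 4.71, 5.15 and 4.54 in vehicle, 4.26, 4.22 and 4.12 in VE50, and 3.86, 4.61 and 3.55 in VE100. All VE50 arrays lay below all vehicle arrays, and VE100 2 overlapped them. The difference of VE100 from vehicle was -0.79 ± 0.29 (limma adjusted p = 0.454). Gbp2 no longer passed without vehicle 2 (-0.62), VE100 1 (-0.72) or VE100 3 (-0.56), and it lay at -0.92 without vehicle 3. VE50 lay at -0.60 ± 0.29 and passed without vehicle 3 (-0.73), VE100 2 or VE100 3. The Gbp2 signal lay within the range of the negative controls on all 9 arrays.

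Irgm1, an immunity-related GTPase that regulates autophagy, had signals of 9.62, 9.92 and 10.70 in vehicle, 9.44, 9.90 and 9.50 in VE50, and 9.96, 8.88 and 8.99 in VE100. VE100 2 and VE100 3 were the lowest arrays, and VE100 1 lay above vehicle 1 and vehicle 2. The difference of VE100 from vehicle was -0.80 ± 0.35, a linear fold of 1.75 (limma adjusted p = 0.518). It no longer passed in 7 of the 9 fits that left out 1 array, all but those without vehicle 1 or VE100 1, and was -0.49 without vehicle 3. Igtp, of the same family, and Gbp3 lay at -0.52 ± 0.38 and -0.49 ± 0.43, and vehicle 3 was the highest array for both, at 8.07 and 7.03. Without vehicle 3, Igtp lay at -0.11 and Gbp3 at 0.09 in VE100, and Gbp3 lay at 0.34 in VE50, against -0.24 ± 0.43 with it.

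Of the 4 peptide loading genes, Tap1 passed between the doses and the others in no comparison. Tap1, a subunit of the transporter that carries peptides into the endoplasmic reticulum, had signals of 7.45, 7.34 and 7.23 in vehicle, 7.44, 7.70 and 8.07 in VE50, and 7.01, 7.01 and 7.15 in VE100. All 3 VE100 arrays lay below all 6 others, and 2 of the 3 VE50 arrays lay above every vehicle array. The difference between the doses was -0.68 ± 0.22 (limma adjusted p = 1.0), and Tap1 passed in every alternative setting that kept it. The filter on low signal left Tap1 out. Against vehicle it lay at -0.28 ± 0.22 in VE100 and 0.40 ± 0.22 in VE50. Tap2, the other subunit, lay at 0.15 ± 0.27 between the doses. Both subunits had signal within the range of the negative controls.

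B2m, the light chain of every MHC class I molecule, had signals of 19.78, 19.65 and 18.98 in vehicle, 19.57, 19.70 and 19.43 in VE50, and 19.56, 19.48 and 19.20 in VE100. The groups overlapped, and the VE100 difference was -0.06 ± 0.25, or -0.30 without vehicle 3. The VE50 difference was 0.10 ± 0.25, or -0.15 without vehicle 3. B2m lay near the top of the scale, where hepatocyte genes such as Alb sat at 19.92 to 19.93 on every array, so a change there may be compressed. Tapbp, or tapasin, which holds MHC class I molecules at the transporter, had signals of 10.22, 10.05 and 8.70 in vehicle. Tapbp lay at -0.45 ± 0.39 in VE100, and without vehicle 3 at -0.93, where it passed; in VE50 it passed without vehicle 3 at -0.99.

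The immunoproteasome genes encode catalytic subunits that replace constitutive ones after interferon exposure. Psmb9 had signals of 5.31, 5.88 and 5.63 in vehicle, 6.26, 5.95 and 6.01 in VE50, and 5.24, 5.98 and 5.15 in VE100. All VE50 arrays lay above all vehicle arrays, and VE100 2 lay among the VE50 values. The difference between the doses was -0.62 ± 0.27 (limma adjusted p = 1.0). It no longer passed in 5 of the 9 fits that left out 1 array (each VE50 array, VE100 1 and VE100 3), where it lay between -0.68 and -0.46. Psmb8 had signals of 6.29, 6.11 and 7.11 in vehicle, 6.22, 6.27 and 6.12 in VE50, and 6.05, 6.34 and 6.40 in VE100. Vehicle 3 alone was high, and the VE100 difference was -0.24 ± 0.27 with it and 0.06 without it. Psmb10 lay at 0.38 ± 0.37 in VE100 and 0.49 ± 0.37 in VE50, or at -0.06 and 0.05 without vehicle 3. All 3 genes lay within the range of the negative controls.

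Each immunoproteasome subunit was also set against the constitutive subunit whose place it takes, within each array. The log2 ratio of Psmb9 to Psmb6 changed by -0.72 from vehicle to VE100 and by -0.69 from VE50 to VE100, each with an exact two-sided permutation p = 0.20 (adjusted p = 0.600 over 6 tests), and by -0.03 from vehicle to VE50. The log2 ratio of Psmb10 to Psmb7 changed by 0.27, 0.04 and 0.23 in the same order. Without vehicle 3, the changes from vehicle to VE100 and to VE50 were -0.13 and -0.17 for this pair, and -1.02 and -0.33 for Psmb9 and Psmb6. A ratio depends on both of its subunits. Psmb9 alone lay at -0.15 ± 0.27 in VE100 against vehicle and at -0.62 ± 0.27 between the doses. The constitutive subunits Psmb6 and Psmb7 both lay above vehicle, with medians of 0.34 in VE100 and 0.37 in VE50. With 3 arrays against 3, an exact p cannot go below 0.1. A pair for Psmb8 was not analysed here.

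**Figure D3:**
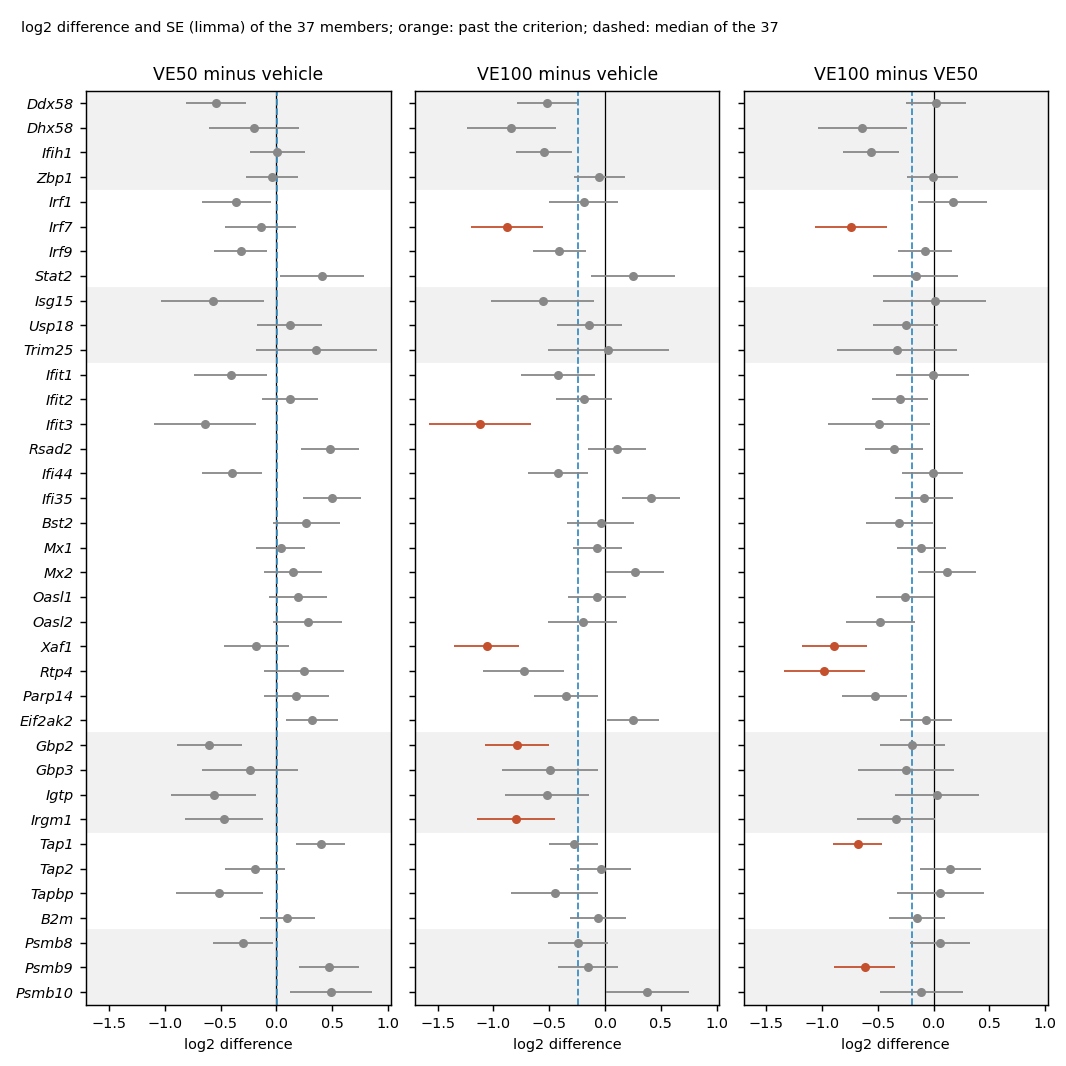
Differences in log2 signal (x axis) of the 37 genes (y axis, grouped by role) for VE50 minus vehicle, VE100 minus vehicle and VE100 minus VE50; bars are SE from limma, orange marks genes past the study's criterion, and the dashed line is the median of the 37. The medians are 0.01, -0.24 and -0.19, and the orange points number 0, 5 and 5, all on the lower side.

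Genes whose arrays did not overlap between groups were counted beside all probe sets. For VE100 against vehicle, 2 genes had all VE100 arrays lower (Xaf1 and Tap1; 6.08% of all probe sets) and 1 had all higher (Mx2; 7.47%). For VE50 against vehicle, 2 were lower (Ddx58 and Gbp2; 4.69%) and 2 higher (Rsad2 and Psmb9; 6.16%). Between the doses, 5 were lower (Irf7, Ifit2, Xaf1, Rtp4 and Tap1; 5.01%) and 0 higher (4.99%).

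The authors' deposited table of genes filtered for VE100 against vehicle holds 4 of the 37 genes (10.8%), against 1815 probe sets in all (8.17%). In the authors' deposited table the signed linear fold was -2.4 for Xaf1 (p-value 0.0049), -1.91 for Irf7 (0.0289), -2.08 for Ifit3 (0.0362) and -2.19 for Dhx58 (0.0455), with FDR values between 0.4663 and 0.6063. Irf7, Ifit3 and Xaf1 also passed in the limma fit over 3 groups, while Dhx58 did not (a log2 difference of -0.84 ± 0.40). The authors' group averages are not the means used in that fit. For Dhx58 they were 5.58 in vehicle and 4.45 in VE100, against means of 5.54 and 4.70. Xaf1, Irf7 and Dhx58 lay within the range of the negative controls on all arrays, which limits their folds.

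Other genes of the interferon pathway were read beside the 37, from lists written by known role. Of 104 measured, 16 passed lower and 3 higher for VE100 against vehicle, 4 lower and 1 higher for VE50, and 7 lower and 0 higher between the doses. Over all probe sets the shares were 4.37% lower and 5.11% higher, 2.80% and 3.31%, and 1.43% and 1.49%. Without vehicle 3 the counts were 24 lower and 6 higher, 11 and 4, and 15 and 0. More of all probe sets passed without it too: 3688, 2991 and 1247 of 22206 in either direction, against 2105, 1358 and 647. Among 45 other interferon-stimulated genes, 12 passed lower and 0 higher for VE100 against vehicle (26.7%), 34 lay below 0, and the median was -0.22. Between the doses 40 of the 45 lay below 0, with a median of -0.35, and 4 passed lower, or 12 without vehicle 3 (1.43% of all probe sets passed lower with all arrays). The 4 with the smallest p were Parp12, Lgals3bp, Ifit3b and Mnda.

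Parp12, an ADP-ribosyltransferase with antiviral activity, lay above the negative controls on all 9 arrays. Its signals were 10.44, 9.91 and 10.47 in vehicle, 9.72, 9.56 and 9.89 in VE50, and 8.96, 9.08 and 9.11 in VE100. The 3 groups did not overlap, and their order followed the dose. The VE100 difference from vehicle was -1.22 ± 0.22 (limma adjusted p = 0.294), and the VE50 difference was -0.55 ± 0.22 (adjusted p = 0.795). Without vehicle 3, VE100 lay at -1.12 with a limma adjusted p = 0.0373, and the VE50 difference no longer passed the criterion (-0.45). The VE50 difference was also lost without vehicle 1 (-0.47), VE50 1 (-0.55) or VE50 2 (-0.47).

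The other leading genes lay within the range of the negative controls. Ifit3b, the copy of Ifit3, lay at -1.32 ± 0.30 in VE100 against vehicle, with all VE100 arrays below all others (limma adjusted p = 0.319). Lgals3bp, a secreted galectin-binding glycoprotein, lay at -1.08 ± 0.24 in VE100 and -0.79 ± 0.24 in VE50, and in each dose all arrays lay below vehicle. Mnda, a nuclear protein of the interferon-inducible HIN-domain family, lay at -1.52 ± 0.41 in VE100. These 3 differences of VE100 from vehicle passed the criterion in all alternative settings that kept the genes. Without vehicle 3, 5 of the 104 pathway genes and 0 of the 37 genes passed limma's adjusted threshold for VE100 against vehicle, against 1.95% of all probe sets. Beside Parp12 these were Ifi30 (-2.41), Lgals9 (-1.99), Mavs (-1.98) and Ifi27 (-1.85), named after their values were seen. With all arrays kept, the differences were -1.66 ± 0.58, -1.34 ± 0.48, -0.73 ± 0.86 and -1.31 ± 0.41 in the same order. Only Mavs then missed the study's criterion. All 5 calls at the adjusted threshold rest on leaving out vehicle 3, since 0 of all probe sets passed that threshold with all arrays kept. Mavs signal was 12.75, 12.64 and 8.93 in vehicle. Vehicle 3 was thus below every VE50 and VE100 array (10.11 to 11.69).

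Upstream of the 37 genes, the 9 interferon ligands measured had signal within the range of the negative controls on all arrays. Ifng, the gene of interferon gamma, lay at 0.82 ± 0.23 in VE100 against vehicle and Ifne, an epithelial type I interferon, at 0.57 ± 0.23, both past the criterion with higher signal. Ifng no longer passed on the authors' value table (0.43), and Ifne no longer passed without vehicle 1 (0.53), vehicle 2 (0.55), VE100 1 (0.54) or VE100 2 (0.44). Of 17 receptor and signalling genes, 2 passed lower in VE100: Ifnar1, a chain of the type I receptor (-0.65 ± 0.22), and Ifngr2, a chain of the interferon gamma receptor (-0.63 ± 0.23, and -0.66 ± 0.23 between the doses). Ifngr2 no longer passed against vehicle without vehicle 2 (-0.57), VE100 1 (-0.57) or VE100 3 (-0.52), nor between the doses without VE50 3 or VE100 3 (-0.54 each). Stat3 was lower in VE50 (-0.59 ± 0.23), though not without vehicle 3 (-0.48) or VE50 2 (-0.45).

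Among 13 genes of innate sensing, Adar, which edits double-stranded RNA, lay at -0.61 ± 0.20 in VE100 against vehicle and -0.49 ± 0.20 between the doses, the latter lost in 4 of 9 fits without 1 array (-0.47 to -0.46, without VE50 2, VE50 3, VE100 1 or VE100 2). Tlr7, an endosomal receptor for single-stranded RNA, lay at -0.94 ± 0.41 between the doses, with all VE100 arrays below all VE50 arrays, and missed the criterion in 6 of the 9 fits without 1 array (each VE50 and each VE100 array; -1.07 to -0.69). Tlr3, an endosomal receptor for double-stranded RNA, lay at -0.65 ± 0.27 in VE50 and -0.61 ± 0.27 in VE100; it missed the criterion in 5 and 7 of the 9 fits without 1 array, and without vehicle 3 it lay at -0.93 and -0.88. Of 11 MHC class I genes and loading partners, Psme1 passed with higher signal, at 0.78 ± 0.33 in VE50 and 0.85 ± 0.33 in VE100. Psme1 encodes a subunit of the interferon-inducible proteasome activator PA28 and lay above the negative controls on all 9 arrays. It missed the criterion in 6 of the 9 fits without 1 array for VE50 (0.52 to 0.83) and in 3 for VE100 (without vehicle 1, vehicle 2 or VE100 1; 0.56 to 0.83). Of 7 MHC class II genes, 0 passed in any comparison.

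Markers of macrophages, markers of endothelium and acute phase genes had lower medians in VE100 than in vehicle. Of 15 Kupffer cell and macrophage markers, 13 lay below 0 in VE100 against vehicle, with a median of -0.85, and 4 passed lower (8 without vehicle 3; 4.37% of all probe sets with all arrays). Against VE50, 14 lay below 0, with a median of -0.68, and 4 passed lower (7 without vehicle 3). Their summed signal (log2) ran from 11.82 to 12.56 in vehicle, 11.02 to 12.49 in VE50 and 10.26 to 11.08 in VE100. Adgre1, which marks mouse macrophages, lay at -1.05 ± 0.28 and Clec4f, a Kupffer cell lectin, at 0.15 ± 0.58, and both lay within the range of the negative controls on all arrays, as did 10 of the 15 markers. In bulk liver, fewer cells of a type and less RNA per cell cannot be told apart, and the part of macrophages in the lower signal of the 37 genes was not tested. Of 8 markers of sinusoidal and vascular endothelium, 7 lay below 0 in VE100 against vehicle, with a median of -0.33 and 0 past the criterion. Without vehicle 3, 8 lay below 0, with a median of -0.68, and 4 passed lower. More of all probe sets passed without vehicle 3 too: 3688 of 22206 in either direction for VE100 against vehicle, against 2105 with all arrays. Between the doses 1247 passed, against 647. Of 11 acute phase genes, 10 lay below 0, with a median of -0.95, or 7 with a median of -0.17 without vehicle 3. Their part in the result was not tested either. Stellate cell and neutrophil markers had lower medians in VE100 too, at -0.21 and -0.38, or -0.38 and 0.14 without vehicle 3. Medians of T cell and B cell markers were -0.03 each, and those of NK cell and dendritic cell markers 0.17 and 0.25. Markers of T cells, NK cells, B cells, neutrophils and dendritic cells lay above the negative controls on 0 arrays.

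The 3 VE100 arrays were not alike. The median of the 37 genes, each set against its 9-array mean, was 0.02, 0.15 and 0.17 in vehicle, 0.09, 0.08 and -0.03 in VE50, and 0.04, -0.16 and -0.29 in VE100. VE100 3 was the lowest array for 10 of the 37 genes, against 10.1% of all probe sets, and VE100 1 lay within the range of the other groups. Without VE100 3 the median difference over the 37 genes was -0.20 from vehicle and -0.14 from VE50. The macrophage markers had 0.42, 0.30 and 0.29 in vehicle, 0.82, 0.07 and -0.35 in VE50, and -0.12, -0.65 and -0.87 in VE100. VE100 1 was the highest and VE100 3 the lowest VE100 array in both lists. This order was not particular to macrophage markers. It also held for acute phase genes (0.21, -0.56 and -0.60) and neutrophil markers (0.23, -0.19 and -0.27). It did not hold for the other interferon-stimulated genes (-0.15, -0.25 and -0.22) or endothelial markers (-0.46, 0.00 and -0.09). The part of any of these measures in another was not tested.

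**Figure D4:**
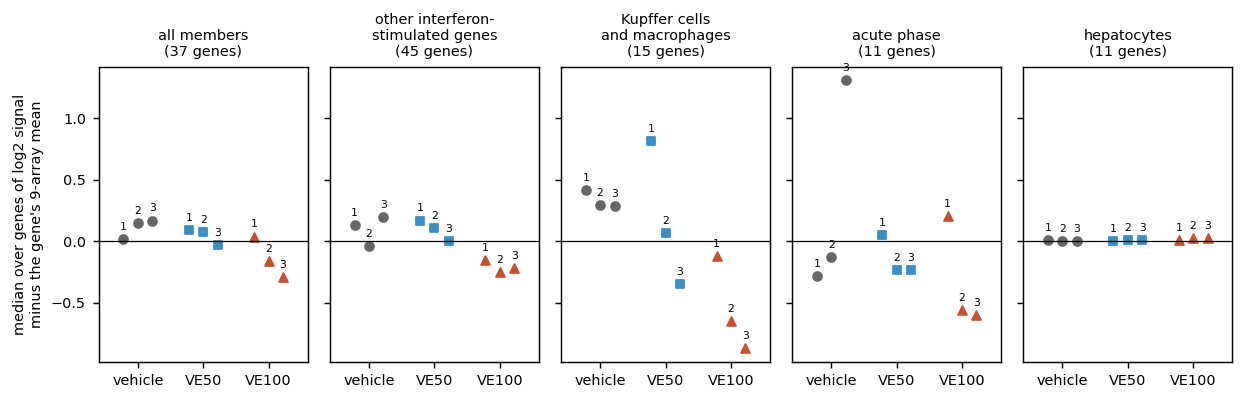
Median over the genes of a list of the log2 signal minus each gene's 9-array mean (y axis), per array (number above each symbol) and group (x axis), for the 37 genes, 45 other interferon-stimulated genes, 15 macrophage markers, 11 acute phase genes and 11 hepatocyte markers. The 37 genes run from 0.17 in vehicle 3 to -0.29 in VE100 3, the macrophage markers from 0.82 in VE50 1 to -0.87 in VE100 3, and the acute phase genes reach 1.31 in vehicle 3.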

How the data were processed

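Clariom S signal was measured in liver RNA of 9 ob/ob mouse samples, 3 per group. Per the series design text, the authors computed log2 signal by SST-RMA (Transcriptome Analysis Console 4.0.2), a method that subtracts background, brings the arrays to a common distribution and merges the probes of a set, so differences in overall signal are evened out. The authors also deposited a value table of log2 values that includes control probe sets (5222 negative, 1324 positive), with the RMA variant not given in the sources used here, and a filtered table with p-values and signed fold scores. The genome build and probe annotation version are not given in the sources used here.

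A mean per group was fitted to the authors' log2 signal of all 22206 probe sets with limma 3.58.1 (lmFit, eBayes, two-sided) in R 4.3.3, with Benjamini-Hochberg adjustment over all probe sets. Ratios within an array were compared with exact permutation tests in scipy 1.17.1. The fit was tested on simulated data. The 37 genes and all lists were chosen with earlier results of these data known, so counts and medians over them are descriptions. All 37 genes are named; signals on every array are given for those past the criterion in any comparison, the 4 with the largest range of group means and the gene of highest mean in each role group, and Isg15 was added with its sequence. Pathway genes are named when past the criterion, at most 4 per list by smallest p. ± after a difference is the limma SE (n = 3 arrays a group), and the number of arrays limits the precision.

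For each comparison 17 alternative values were computed per gene, or 18 where the filter on low signal kept the gene. Replicate numbers did not pair the samples: deviations of equally numbered arrays correlated between -0.237 and 0.208. Without a stated batch, none was fitted. A gene of the pathway lists is not reported here.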

Additional observations from a re-analysis of the deposited data

Results flagged for a closer look

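Of the 37 genes, 2 had all VE50 arrays on one side of the vehicle mean and all VE100 arrays on the other (5.41%, against 327 of all probe sets, 1.47%). For Rtp4 the VE50 arrays lay above the vehicle mean of 5.43 and the VE100 arrays below it, and the difference between the doses was -0.98 ± 0.36 (limma adjusted p = 1.0). For Tap1 the vehicle mean was 7.34 and the difference between the doses -0.68 ± 0.22 (limma adjusted p = 1.0). Both genes lay within the range of the negative controls on all 9 arrays.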

How the results depend on the processing

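Of 10 differences of the 37 genes past the study's criterion, 171 alternative values were computed: 131 kept the direction and the criterion, 40 kept the direction and missed the criterion, and 0 reversed. Of 101 differences not past it, 37 of 1737 alternative values passed. Of 22 pathway gene differences past it, 295 of 382 alternative values kept it, 87 missed it and 0 reversed. Tap1 between the doses and Xaf1 against vehicle passed in every alternative fit that kept them, and the filter on low signal left both out. The causes of the other changes were not tested.

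For VE50 against vehicle, 1 of the 37 genes passed with only the 2 groups compared, 1 on the value table, 2 with the replicate block and 3 with array weights, and 0 to 3 without 1 array, where the median lay between -0.07 and 0.01. Over all probe sets 1358 passed the criterion, 301 after the filter on low signal, 2902 with array weights and 987 to 2991 without 1 array, and 0 to 10 passed the adjusted threshold without 1 array. For VE100 against vehicle, 3 genes passed with only the 2 groups compared, 3 after a further quantile normalization and 3 to 6 without 1 array, and 4 with the replicate block. Over all probe sets 2105 passed the criterion, 520 after the filter, 3743 with array weights and 1619 to 3688 without 1 array (most without vehicle 3); 1 passed the adjusted threshold on the value table, 125 with array weights and 0 to 434 without 1 array. The median over the genes was -0.35 to -0.19 without 1 array. Between the doses, 2 to 7 genes passed without 1 array and 5 with the replicate block, with a median of -0.26 to -0.14. Over all probe sets 647 passed the criterion, 1119 with only the 2 groups compared, 67 after the filter, 1267 with array weights and 413 to 1247 without 1 array, and 0 passed the adjusted threshold.

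Signal over background limits these values. The filter (above the negative controls on at least 3 arrays) left 4197 probe sets and 7 of the 37 genes, 0 of which passed against vehicle or between the doses; the median was then -0.06 for VE100 against vehicle and -0.31 between the doses. The same medians, -0.06 and -0.31, were found over the 9 genes above the negative controls on at least 1 array, a setting added after seeing the data. Equally numbered arrays are not known to share more than a number, so the block is not taken as a stronger design.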
